A study of Saccharomyces cerevisiae with 36 samples.

Results

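The autophagy genes of *Saccharomyces cerevisiae* were taken as every gene in the deposited count table whose first listed name was ATG followed by a number, together with *VPS30*, *VPS34* and *VPS15*. This rule used names only and gave 37 of the 5697 genes in the table, and all 37 names matched a RefSeq symbol. Transcripts were counted by 3′ end sequencing in 36 libraries, 3 in each of 12 groups, which crossed 2 strains, 2 media and 3 times of harvest. The *gal80Δ* strain lacks Gal80, the inhibitor of the activator Gal4, so its *GAL* genes are on without galactose, and it was set against the wild-type prototroph FY4. The fructose-palatinose medium held 0.1% fructose and 0.9% palatinose, and the fructose medium 0.1% fructose alone. Cells were harvested at mid-log growth and 10 and 16 hours later, named +10h and +16h here. All cultures were pre-grown on pyruvate and then kept in minimal (Delft) medium at 30 °C, and the deletion carried no other labelled allele. Whether the *gal80Δ* strain was 1 clone is not given in the sources used here. The design asks how loss of Gal80 alters expression in the 2 media as fructose runs out. The 3 libraries of a group, lettered A, B and C, are described as biological replicates, and whether libraries of 1 letter at different times came from the same flask is not given in the sources used here.

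In autophagy a double membrane grows around cytoplasm or a chosen organelle, closes, and fuses with the vacuole, where the content is degraded. Starvation releases the Atg1 kinase from inhibition by the TOR kinase, and the lipidated ubiquitin-like protein Atg8 then coats the growing membrane, together with a phosphatidylinositol 3-kinase (PI3-kinase) complex and lipid-delivering vesicles. Selective forms use receptors that bind both Atg8 and a cargo such as mitochondria, peroxisomes or endoplasmic reticulum, and the cytoplasm-to-vacuole targeting (Cvt) route uses the same machinery to deliver vacuolar enzymes in growing cells. Transcripts were measured here, not autophagy itself.

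The libraries held 6020770 to 11785148 counted reads, with a median of 8282840.5. Levels are given as CPM, the count of a gene scaled to a common library total, while log2 fold changes come from edgeR with TMM scaling, so a ratio of CPM values can differ from them. A total of 3 counts amounts to 0.255 to 0.498 CPM, which covers counting error only. *GAL80* stood at 8.10 to 17.2 CPM in the 18 *gal80Δ* libraries and at 45.9 to 117 CPM in the 18 wild-type libraries, and *GAL1* at 6611 to 19461 CPM in *gal80Δ* and 19.3 to 73.3 CPM in wild-type. Of the 37 members, 36 passed the filter on low counts. *ATG16*, whose product holds the Atg12-Atg5 conjugate at the membrane, had 1 count in 1 library and 0 in the other 35, and 544 bases of its interval, with its 3′ end, lie in that of *YMR158C-A* on the same strand. *ATG15*, a vacuolar lipase gene, had 0 to 19 counts per library, and 1045 bases of its interval, with its 3′ end, lie in that of *CPR4* on the same strand. For 19 members the counted interval also overlaps a gene on the opposite strand, and the strand setting of the counting is not given in the sources used here.

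The DNA just before 4 members is shown to set start regions of genes that rose strongly over time beside one that did not. Each runs 5′ to 3′ on the gene's strand and ends at the base before the gene's counted interval in the R64 build, read from the RefSeq genome. For *ATG8*, on chromosome II, chrII:80776-80946 on the minus strand was taken, the 171 bases that lie in no other gene's interval. For *ATG39* chrXII:759028-759327 on the minus strand was taken, for *ATG1* chrVII:159202-159501 on the plus strand, and for *ATG27*, a member that did not rise, chrX:90143-90442 on the minus strand. Capitals mark AGGGG, the stress response element of Msn2 and Msn4, and GGCGGC, the core of the URS1 site of the repressor Ume6, on either strand.
ATG8: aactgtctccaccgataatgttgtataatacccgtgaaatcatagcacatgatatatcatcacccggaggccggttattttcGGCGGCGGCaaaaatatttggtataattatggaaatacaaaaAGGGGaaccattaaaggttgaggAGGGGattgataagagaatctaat
ATG39: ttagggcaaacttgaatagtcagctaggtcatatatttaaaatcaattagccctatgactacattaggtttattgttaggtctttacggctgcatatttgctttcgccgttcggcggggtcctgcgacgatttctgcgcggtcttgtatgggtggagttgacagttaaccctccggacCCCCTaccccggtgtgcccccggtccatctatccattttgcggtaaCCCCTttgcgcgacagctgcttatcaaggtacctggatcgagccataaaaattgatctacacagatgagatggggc
ATG1: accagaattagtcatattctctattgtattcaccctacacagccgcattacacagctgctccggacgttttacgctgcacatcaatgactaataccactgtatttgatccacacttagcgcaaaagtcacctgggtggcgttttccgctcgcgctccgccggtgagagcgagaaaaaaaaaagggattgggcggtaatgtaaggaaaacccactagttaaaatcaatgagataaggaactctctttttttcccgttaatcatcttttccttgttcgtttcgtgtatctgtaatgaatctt
ATG27: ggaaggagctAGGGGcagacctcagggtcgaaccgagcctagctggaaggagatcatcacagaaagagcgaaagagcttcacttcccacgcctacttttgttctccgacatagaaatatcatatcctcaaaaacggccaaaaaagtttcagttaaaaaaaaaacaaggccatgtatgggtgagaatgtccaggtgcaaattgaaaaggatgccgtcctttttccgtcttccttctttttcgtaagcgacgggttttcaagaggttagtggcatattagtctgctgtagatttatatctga
*ATG8* held 2 overlapping copies of GGCGGC and 2 copies of AGGGG in this stretch, *ATG39* held 2 copies of AGGGG, and *ATG1* held neither. *ATG27* held 1 copy of AGGGG. In windows of 300 bases before each counted interval, AGGGG was found before 13 of 37 members (35.1%) and before 22.1% of the 5697 genes, and GGCGGC before 2 members, *ATG8* and *ATG19* (5.41%), and before 5.72% of all genes. TGACTC, bound by the activator Gcn4, was found before 6 members (16.2%), against 8.13% of all genes. The Gal4 motif, CGG and CCG with 11 bases between them, was found before *ATG22* and *VPS34* (5.41%), against 1.97% of all genes. AGGGG lay before 11 of the 33 members that were called higher at +10h in at least 1 culture and before 2 of the 3 that were called higher in none. These are matches of letters, counted on both strands, in windows that for most members reach into another gene's interval. All 300 bases do so for *ATG21* and *ATG32*, and 231 and 149 bases do for *ATG22* and *VPS34*, the members with the Gal4 motif.

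Most autophagy genes were low at mid-log and higher 10 hours later, in both strains and both media. The summed level of the 37 genes was 933 ± 52.3 CPM at mid-log, 2867 ± 123 CPM at +10h and 2414 ± 188 CPM at +16h in *gal80Δ* in fructose-palatinose (SD, n = 3 in every group), and 959 ± 103, 2998 ± 225 and 2442 ± 41.3 CPM in *gal80Δ* in fructose. In wild-type it was 751 ± 62.8, 1856 ± 121 and 1670 ± 112 CPM in fructose-palatinose, and 754 ± 40.4, 2652 ± 274 and 2242 ± 47.0 CPM in fructose. At +10h and +16h the wild-type cultures in fructose-palatinose thus stood below the other 3 cultures, with no overlap between libraries. These sums are scaled by library size alone, without TMM. On that scale the median of all genes tested also rose, by 0.28 to 0.38 in log2 from mid-log to +10h. For palatinose in wild-type it stood at -0.13 at +10h and -0.05 at +16h.

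**Figure D1:**
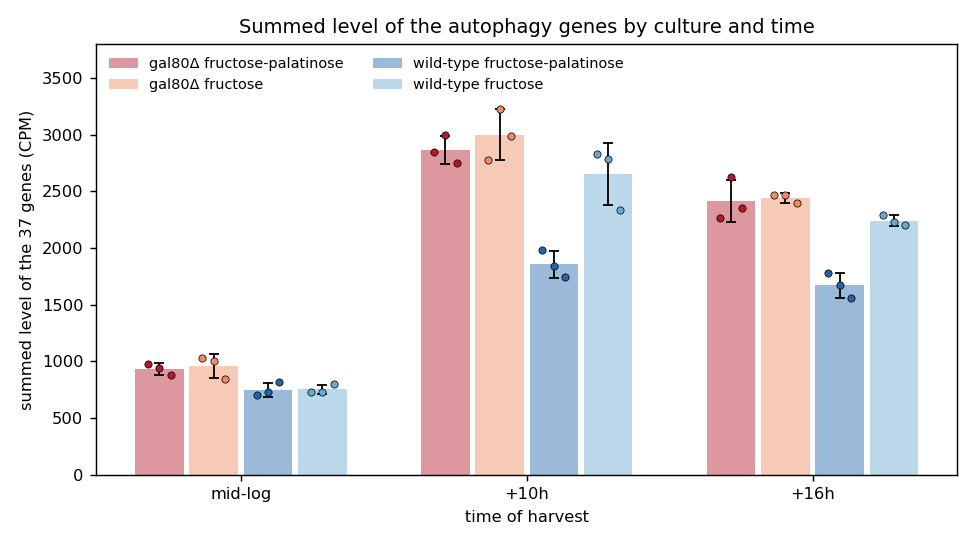
Summed level of the 37 autophagy genes (vertical axis, CPM) at each time of harvest (horizontal axis) in the 4 kinds of culture; bars are means of 3 libraries, error bars ± SD and points single libraries. Wild-type in fructose-palatinose averaged 1856 CPM at +10h, below the averages of 2867, 2998 and 2652 CPM of the other cultures.

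A gene was called where its log2 fold change lay beyond 0.5 and its adjusted p below 0.05 in edgeR, with p-values adjusted over the 5479 genes tested. At +10h against mid-log, 28 of 36 members were called higher in *gal80Δ* in fructose-palatinose, where 27.4% of all genes tested were called higher, and 30 in *gal80Δ* in fructose, where 28.9% were. In wild-type 28 members were called higher in fructose-palatinose (24.5% of all genes) and 31 in fructose (29.1%). Called lower was 1 member, *ATG23*, in wild-type in fructose-palatinose, where 21.2% of all genes were called lower, and none in the other 3 cultures (23.2%, 23.7% and 26% of all genes). In wild-type in fructose 1 member had an unadjusted p under 0.05 in that direction and DESeq2 called 1 lower, *ATG27*, while in *gal80Δ* both counts were 0, and edgeR called 1 lower in wild-type in fructose without the C libraries. The median member changed by 1.14, 1.28, 0.96 and 1.14 on the log2 scale in these 4 cultures, in the same order, against medians over all genes of 0.05, 0.06, 0.02 and 0.02. With libraries scaled by their size alone, which moved the median of all genes to 0.34, 0.33, 0.28 and 0.38, the calls among all genes became 39.8%, 40%, 35.2% and 42% higher and 13.6%, 15.3%, 11.9% and 15.3% lower, and 30, 32, 31 and 31 members were higher. Of the 36 members 26 were called higher in all 4 cultures, 33 in at least 1 and 3 in none, where 18.9%, 36.7% and 63.3% of all genes tested were. Harvest optical density averaged 0.28 to 0.307 at mid-log and 1.47 to 1.73 at +10h, so time and density cannot be told apart.

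**Figure D2:**
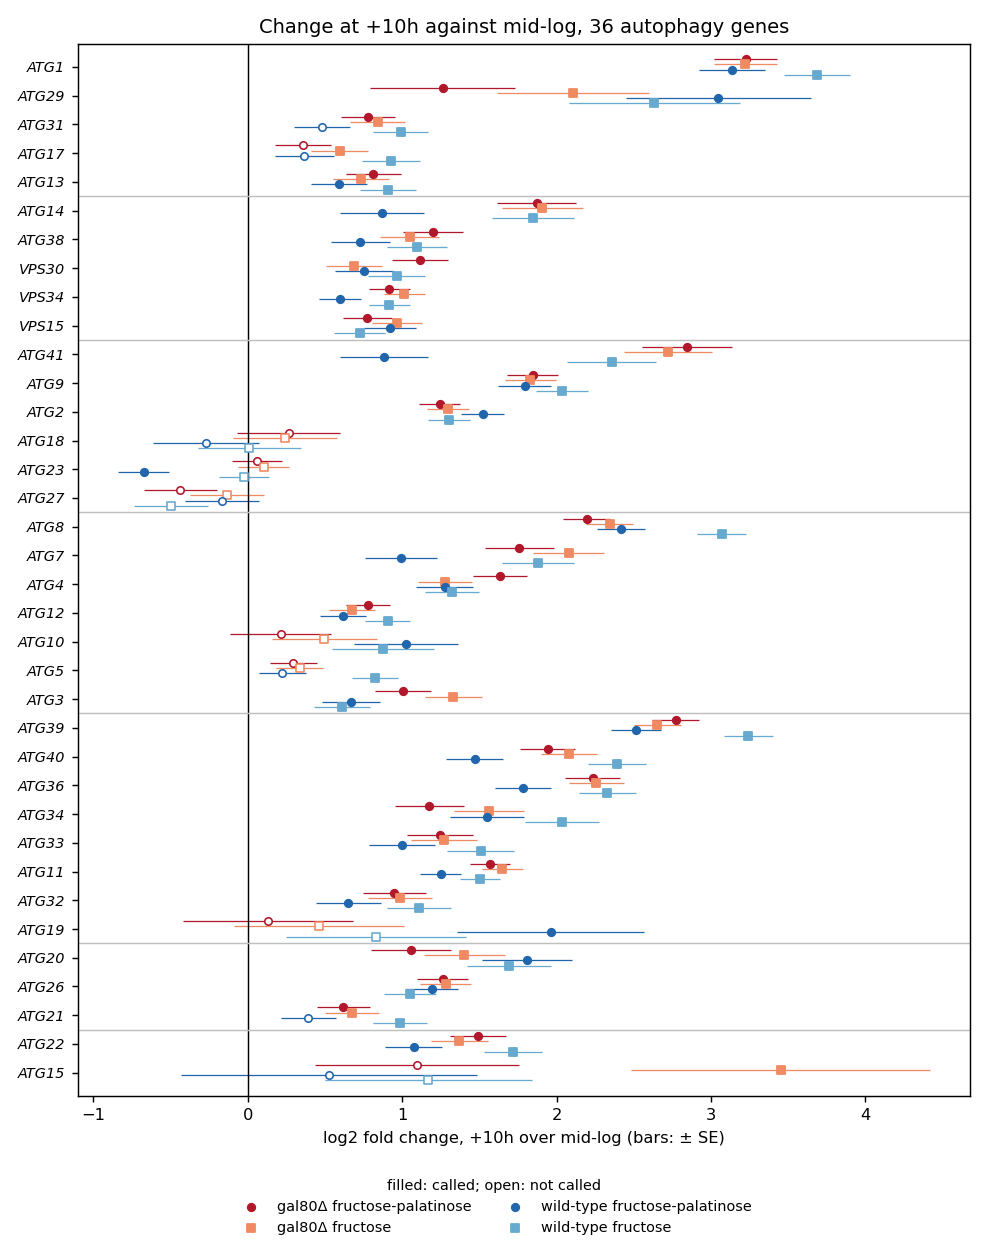
Log2 fold change at +10h over mid-log (horizontal axis, bars ± SE) of the 36 autophagy genes that were tested, in the 4 kinds of culture; filled points were called, and grey lines part the role groups, from the kinase complex at the top to the vacuolar steps at the bottom. *ATG1*, *ATG39* and *ATG8* lie above 2 in every culture, while *ATG18*, *ATG27* and *ATG23* lie between -0.68 and 0.26.

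Within the kinase complex that starts autophagy, *ATG1*, the kinase itself, rose most. In *gal80Δ* it stood at 235, 304 and 245 CPM at +10h, against 27.6, 21.3 and 19.8 CPM at mid-log, in fructose-palatinose, and at 210.5, 259 and 299.99 CPM against 25.4, 23.2 and 19.7 CPM in fructose. In wild-type it stood at 137, 154 and 96.5 CPM at +10h, against 8.70, 13.7 and 14.7 CPM at mid-log, in fructose-palatinose, and at 234, 189 and 174 CPM against 12.1, 11.9 and 12.3 CPM in fructose. Every +10h library lay far above every mid-log library of its culture. The log2 fold change was 3.23 (SE 0.20, adjusted p = 5.23e-14) and 3.22 (SE 0.21) in *gal80Δ* in the 2 media, and 3.14 (SE 0.21) and 3.69 (SE 0.21) in wild-type. *ATG13*, the regulatory subunit that TOR phosphorylates, was called in all 4 cultures with smaller changes of 0.59 to 0.91, and *ATG17* and *ATG31*, parts of the scaffold, in 2 and 3 of them. *ATG29*, the third scaffold subunit, was called in all 4 with changes of 1.26 to 3.05, but from few reads, at most 82 per library and 0 in 1 wild-type library. In wild-type in fructose-palatinose it stood at 8.83, 7.68 and 3.68 CPM at +10h, against 1.11, 0.596 and 0.275 CPM at mid-log.

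All 5 members of the PI3-kinase group were called higher in all 4 cultures. *VPS34*, the lipid kinase, stood at 65.2, 59.4 and 53.5 CPM at +10h, against 27.8, 27.5 and 21.6 CPM at mid-log, in *gal80Δ* in fructose-palatinose, and at 42.1, 37.9 and 29.8 against 20.7, 20.8 and 18.7 CPM in wild-type in the same medium. The changes of *VPS34* were 0.92, 1.01, 0.60 and 0.91 in *gal80Δ* in fructose-palatinose and fructose and in wild-type in fructose-palatinose and fructose, and no library at +10h overlapped one at mid-log. *VPS15*, its protein kinase partner, stood at 45.4, 53.8 and 42.1 CPM at +10h, against 24, 22 and 21.5 CPM at mid-log, in *gal80Δ* in fructose-palatinose, and at 33.3, 36.7 and 29.4 against 14.1, 12.8 and 17.1 CPM in wild-type in that medium. *VPS15* changed by 0.77, 0.97, 0.92 and 0.72 in the same order, and *VPS30*, the Beclin homologue shared with vacuolar protein sorting, with 23.4, 24.3 and 23.4 against 10.0, 8.75 and 8.06 CPM in *gal80Δ* in fructose-palatinose, by 1.11, 0.69, 0.75 and 0.97. *ATG14*, the subunit that directs the complex to autophagy, changed by 1.87 (SE 0.26) and 1.91 (SE 0.26) in *gal80Δ* and 1.85 (SE 0.27) in wild-type in fructose, and in wild-type in fructose-palatinose by 0.87 (SE 0.27). The difference between the wild-type media in this step was -0.98 (adjusted p = 0.181), which missed the threshold. *ATG38*, a linker within the complex, changed by 1.20, 1.05, 0.73 and 1.10.

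Members of the group that carries and donates membrane split. *ATG9*, the transmembrane protein of the founding vesicles, stood at 92.5, 112 and 95.8 CPM at +10h, against 22.3, 25.4 and 20.3 CPM at mid-log, in *gal80Δ* in fructose-palatinose, and at 101, 106 and 123 against 25.3, 28.3 and 23.3 CPM in *gal80Δ* in fructose. In wild-type it stood at 53.9, 63 and 59.4 against 11.1, 11.3 and 20.7 CPM in fructose-palatinose and at 91.7, 109.7 and 67 against 14, 16.3 and 20.2 CPM in fructose. The groups did not overlap, and the changes were 1.84, 1.83, 1.79 and 2.03. *ATG2*, the lipid transfer protein, changed by 1.24 to 1.52. *ATG41*, known to bind Atg9, changed by 2.84 and 2.72 in *gal80Δ* and by 0.88 and 2.36 in wild-type, each in fructose-palatinose and fructose. *ATG18*, a phosphoinositide-binding protein, and *ATG27*, an Atg9 trafficking factor, were called by edgeR in none of the 20 comparisons of 2 groups: *ATG27* stood at 73.8 to 84.1 CPM at +10h, against 73.6 to 98.9 CPM at mid-log, in *gal80Δ* in fructose-palatinose, and at 41.6 to 88.8 CPM against 56.3 to 92.0 CPM in wild-type in fructose. *ATG23*, which works with Atg9 and Atg27, fell to 20.2, 19.1 and 22.7 CPM at +10h, against 24.3, 24.4 and 34.6 CPM at mid-log, in wild-type in fructose-palatinose (-0.68, SE 0.16, adjusted p = 0.00093), with no overlap.

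The conjugation group attaches Atg8 to lipid and Atg12 to Atg5. *ATG8* stood at 372, 347 and 319 CPM at +10h, against 68.5, 58.5 and 58.1 CPM at mid-log, in *gal80Δ* in fructose-palatinose, and at 359, 448 and 375 against 87.3, 66.9 and 41.6 CPM in *gal80Δ* in fructose. In wild-type it stood at 236, 212 and 247 against 27.6, 35.7 and 46.3 CPM in fructose-palatinose and at 438, 397 and 355 against 34.1, 37.7 and 38.8 CPM in fructose. The groups did not overlap, and the log2 fold changes were 2.20 (SE 0.15, adjusted p = 3.37e-13), 2.34 (SE 0.15), 2.42 (SE 0.16) and 3.07 (SE 0.16). *ATG7*, the enzyme that activates both Atg8 and Atg12, changed by 1.76, 2.08, 0.99 and 1.88 in the same order, and *ATG4*, the protease that processes Atg8, by 1.63, 1.28, 1.27 and 1.32. *ATG3*, which conjugates Atg8, and *ATG12* were called in all 4 cultures with changes of 0.61 to 1.33 and 0.62 to 0.91. *ATG10*, which conjugates Atg12, was called in wild-type in both media and *ATG5*, its target, in wild-type in fructose. Whether their change differed between the wild-type media gave adjusted p = 0.907 and 0.129. In *gal80Δ* in fructose-palatinose and fructose the mean of *ATG10* rose from 4.52 to 6.47 and from 3.87 to 6.48 CPM. That of *ATG5* rose from 45.9 to 69.0 and from 48.3 to 73.3 CPM. A difference between strains in these changes was not tested.

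Of the 8 cargo receptors and scaffolds, 7 were called higher in all 4 cultures. *ATG39*, a receptor for the nuclear envelope, stood at 105, 94.2 and 91.1 CPM at +10h, against 13.5, 9.42 and 11.9 CPM at mid-log, in *gal80Δ* in fructose-palatinose, and at 57.5, 51.1 and 55.4 against 6.35, 6.55 and 11.2 CPM in wild-type in that medium. In fructose it stood at 84.2, 126 and 105 against 16.8, 14.9 and 9.89 CPM in *gal80Δ* and at 103, 109 and 85.7 against 7.91, 7.29 and 9.19 CPM in wild-type. These groups did not overlap, with changes of 2.77 and 2.52 in fructose-palatinose and 2.65 and 3.24 in fructose, and 192 bases at its 3′ end are shared with *YLR311C* on the same strand. *ATG40*, a receptor for endoplasmic reticulum, changed by 1.47 to 2.39, and *ATG36*, the peroxisome receptor, by 1.78 to 2.33. *ATG11*, the scaffold for selective autophagy, *ATG34*, a receptor for Cvt cargo, *ATG33* and *ATG32*, both needed for mitophagy, rose by 1.25 to 1.65, 1.18 to 2.03, 1.00 to 1.51 and 0.65 to 1.11. *ATG19*, the receptor for the Cvt enzyme Ape1, was called in wild-type in fructose-palatinose alone, by 1.96, with an SE of 0.60. Its mean also rose elsewhere, from 10.8 to 14.8 CPM in *gal80Δ* in fructose-palatinose and from 11.5 to 18.6 CPM in *gal80Δ* in fructose. In wild-type in fructose it rose from 6.44 to 14.1 CPM. No member was called higher in the test of whether this change differed between the wild-type media.

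Among the remaining members, *ATG20*, a sorting nexin, rose by 1.06 to 1.81 and *ATG26*, a sterol glucosyltransferase, by 1.05 to 1.28 in the 4 cultures, and *ATG21*, a phosphoinositide-binding protein, was called in 3 of them. *ATG22*, a vacuolar amino acid exporter, rose by 1.07 to 1.72. *ATG15* was called only in *gal80Δ* in fructose (3.45, SE 0.97), where it stood at 1.06, 0.783 and 1.63 CPM at +10h, against 0, 0.209 and 0 CPM at mid-log. The mid-log values are at or under the level of 3 counts, so no fold is read from it. The 30 members called higher in *gal80Δ* in fructose, and the 33 called in at least 1 culture, include *ATG15*.

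From +10h to +16h few members moved, and those that were called fell. This step shares its +10h libraries with the first. Called lower were 5 of 36 members in *gal80Δ* in fructose-palatinose (3.45% of all genes called lower), 4 in *gal80Δ* in fructose (4.16%), none in wild-type in fructose-palatinose (0.548%) and 2 in wild-type in fructose (5.4%), and none was called higher (5.15%, 5.11%, 1.04% and 5.71% of all genes). Where none was called, edgeR gave 2 members at an unadjusted p under 0.05 and DESeq2 called 2. *ATG41* was called lower in 3 cultures. It stood at 8.33, 12.6 and 9.67 CPM at mid-log, 97.7, 101 and 71.8 CPM at +10h and 30.5, 43.9 and 50.9 CPM at +16h in *gal80Δ* in fructose-palatinose, so every +16h library lay between the mid-log and the +10h ones. The second step was -1.10 (SE 0.27, adjusted p = 0.00582) there, -0.83 (SE 0.26) in *gal80Δ* in fructose and -1.28 (SE 0.27) in wild-type in fructose. *ATG1* fell to 129, 131 and 127 CPM at +16h, against 235, 304 and 245 CPM at +10h, in *gal80Δ* in fructose-palatinose (-1.0, SE 0.19, adjusted p = 0.000484), and by 0.82 in *gal80Δ* in fructose. *ATG22* fell by 0.82 in *gal80Δ* in fructose-palatinose and by 0.92 in wild-type in fructose, *ATG38* by 0.69 and 0.61 in *gal80Δ* in the 2 media, *VPS15* by 0.56 in *gal80Δ* in fructose-palatinose and *ATG3* by 0.53 in *gal80Δ* in fructose. *ATG8* was called in this step in no culture, and at +16h stood at 331, 414 and 327 CPM in *gal80Δ* in fructose-palatinose and 346, 359.8 and 313 CPM in wild-type in fructose. The counts of this step moved with the library left out. Without the A, B and C libraries 3, 1 and 3 members were called in *gal80Δ* in fructose-palatinose, where the share of all genes called in either direction was 5.62%, 3.25% and 4.74%, against 8.6% with all libraries. In *gal80Δ* in fructose 2, 2 and 0 were called (5.57%, 7.17% and 5.24% of all genes, against 9.27%), and in wild-type in fructose 2, 2 and 4 (4.93%, 3.78% and 11.6%, against 11.1%). Scaled by library size alone, 8.05% of all genes were called lower and 4.29% higher in wild-type in fructose.

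**Figure D3:**
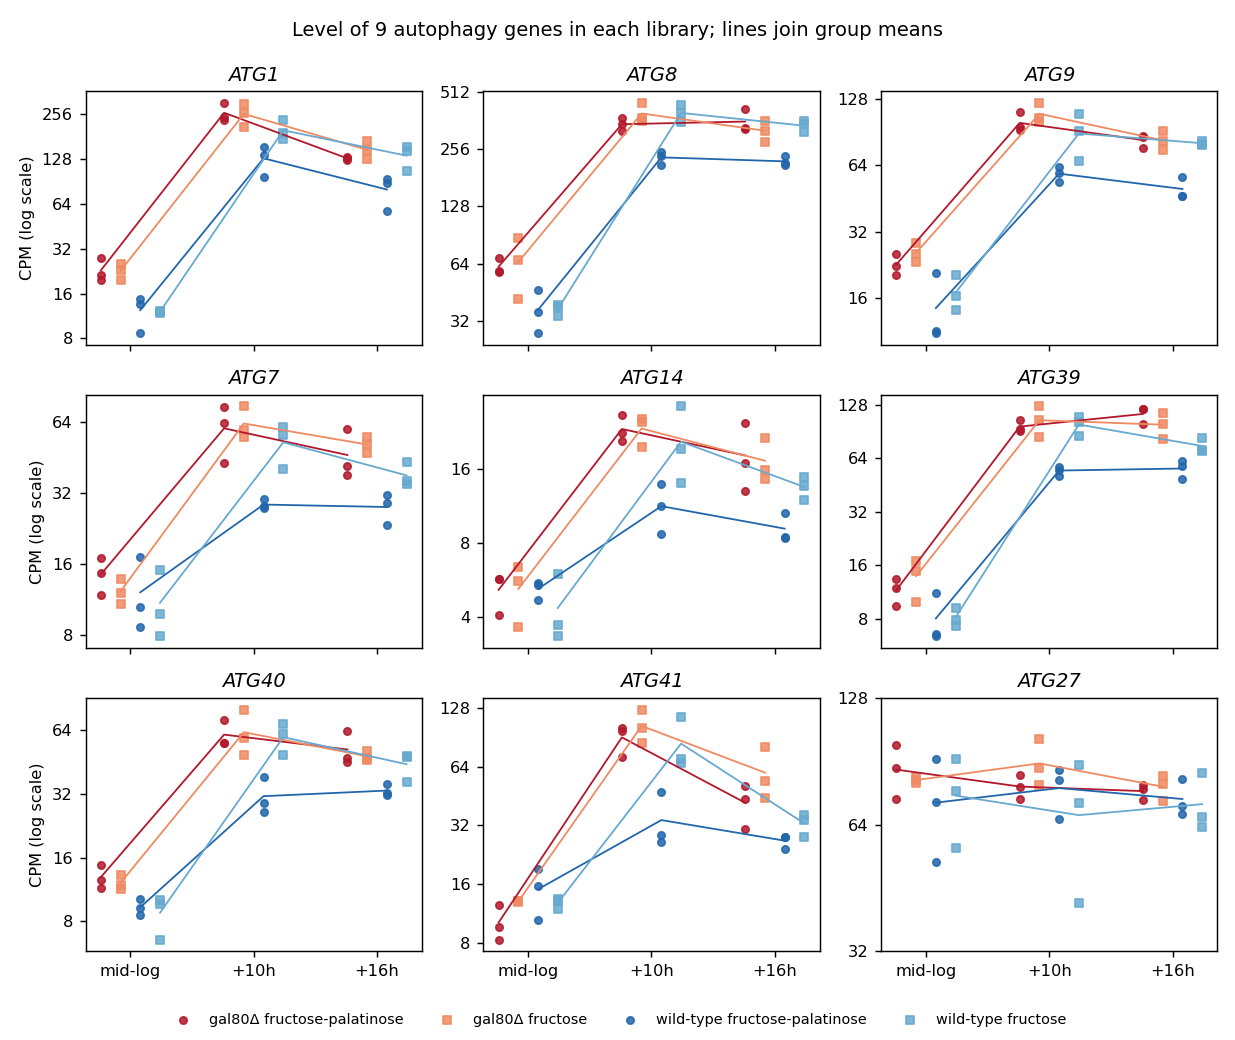
Level of 9 members (vertical axes, CPM on a log scale) in every library by time of harvest (horizontal axis); colours and shapes give strain and medium, and lines join the means of 3 libraries. *ATG1*, *ATG8* and *ATG39* rise several fold by +10h, wild-type in fructose-palatinose lies lowest at +10h for the first 8 genes, and *ATG27* stays between 41.6 and 102 CPM throughout.

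In wild-type several members were lower with palatinose at +10h and +16h, and no member was called for palatinose at mid-log in either strain or at any time in *gal80Δ*. In *gal80Δ* edgeR called 0 of 36 members at mid-log, +10h and +16h, where 0.128% of all genes were called higher each time and at most 0.0183% lower. At these times 2, 1 and 1 members had an unadjusted p under 0.05, DESeq2 called none, and the median member changed by -0.04, -0.10 and -0.03. In wild-type at mid-log 0 were called (0.128% of all genes higher), none had an unadjusted p under 0.05, DESeq2 called none, and the median was 0.01. At +10h in wild-type 8 members were called lower and none higher, where 6.19% of all genes were called lower and 5.37% higher, and 30 of 36 members had a negative log2 fold change with a median of -0.39 (all genes -0.01). At +16h in wild-type 5 were called lower and none higher (3.63% and 2.56% of all genes), 33 of 36 had a negative value, and the median was -0.31. Of the 12 members called at either time *ATG8* was the one called at both. Harvest optical density averaged 1.73 in fructose-palatinose and 1.52 in fructose at +10h in wild-type, and 2.73 and 1.95 at +16h, against 1.58 and 1.47, and 1.98 and 1.83, in *gal80Δ*. The part of density in these differences was not tested.

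*ATG8* stood at 236, 212 and 247 CPM in fructose-palatinose and 438, 397 and 355 CPM in fructose in wild-type at +10h, and at 236, 216 and 211 and 346, 359.8 and 313 CPM at +16h. The media did not overlap at either time, with log2 fold changes of -0.66 (SE 0.15, adjusted p = 0.0024) and -0.57 (SE 0.15, adjusted p = 0.0122). In *gal80Δ* at +10h it stood at 372, 347 and 319 CPM in fructose-palatinose and 359, 448 and 375 CPM in fructose, which overlap, and the change was -0.24 (SE 0.14, adjusted p = 1). *ATG41* showed the largest called difference between media, at 47.5, 26.3 and 28.5 CPM in fructose-palatinose and 115, 66.6 and 70.2 CPM in fructose in wild-type (-1.20, SE 0.27, adjusted p = 0.00265). These groups did not overlap, while in *gal80Δ* the values of 97.7, 101 and 71.8 CPM in fructose-palatinose and 125, 100.4 and 84.4 CPM in fructose did (-0.26, SE 0.26, adjusted p = 1). A stretch of 35 bases at the 3′ end of *ATG41* is shared with *YAH1* on the same strand.

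The endoplasmic reticulum receptor *ATG40* stood at 38.5, 29.1 and 26.2 CPM in fructose-palatinose and 68.2, 61.2 and 48.7 CPM in fructose in wild-type at +10h (-0.81, SE 0.17, adjusted p = 0.00148). The receptor *ATG39* stood at 57.5, 51.1 and 55.4 CPM and 103, 109 and 85.7 CPM (-0.74, SE 0.14, adjusted p = 0.000587), and the activating enzyme *ATG7* at 27.5, 28.2 and 30.1 CPM and 56.1, 60.9 and 40.4 CPM (-0.75, SE 0.22, adjusted p = 0.0188). None of the 3 overlapped between media. *ATG14* stood at 8.67, 11.2 and 13.9 CPM in fructose-palatinose and 19.1, 28.6 and 14 CPM in fructose (-0.72, SE 0.24, adjusted p = 0.0447). In CPM its lowest fructose library lay barely above the highest with palatinose. The TMM factors of these libraries were 1.065 and 1.027, so that order does not carry over to the scale of the test. *ATG33* and *ATG5* completed the 8, at -0.64 and -0.51. *ATG1* had a log2 fold change of -0.50 at +10h (adjusted p = 0.0638), which missed the threshold, and at +16h stood at 87.9, 94 and 57.4 CPM in fructose-palatinose, against 153, 107 and 144 CPM in fructose (-0.71, SE 0.19, adjusted p = 0.0162), with no overlap. *ATG9*, *ATG23* and *ATG36* were the others called at +16h, at -0.64, -0.70 and -0.61. For *ATG9* these were 46.6, 56.8 and 46.6 CPM in fructose-palatinose and 79.4, 82.6 and 80.5 CPM in fructose.

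The counts in wild-type moved with the libraries used, and so did those over all genes. At +10h 4, 0 and 8 members were called without the A, B and C libraries, where 5.6%, 2.04% and 12.7% of all genes were called in either direction, against 11.6% with all libraries, and the members' medians were -0.36, -0.34 and -0.39. When the 2 groups were fitted alone 1 member and 2.51% of all genes were called. At +16h the counts were 1, 2 and 0 without the A, B and C libraries (2.01%, 4.12% and 2.55% of all genes, against 6.19%), with medians of -0.36, -0.28 and -0.27. Scaling by library size alone, which moved the median of all genes at +10h to -0.13, called 16 members lower there, with 11.1% of all genes lower and 3.6% higher, and at +16h 4.18% of all genes lower and 1.84% higher. The test of whether palatinose acted differently in the 2 strains called no member at any time: at mid-log, +10h and +16h 1, 7 and 8 members had an unadjusted p under 0.05 in edgeR, and DESeq2 called 0, 0 and 1, where edgeR called 0, 0.256% and 0.748% of all genes higher and 0, 0.548% and 0.785% lower. Its values were 0.73 (SE 0.24, adjusted p = 0.157) for *ATG40* and 0.94 (SE 0.37, adjusted p = 0.268) for *ATG41* at +10h, and 0.73 (SE 0.20, adjusted p = 0.0637) for *ATG8* at +16h, the member that DESeq2 called. A difference between strains in the palatinose effect was therefore not shown for any member by edgeR.

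In the test of whether the change at +10h over mid-log depended on the medium, *ATG41* (-1.48, SE 0.40, adjusted p = 0.0352) and *ATG40* (-0.92, SE 0.26, adjusted p = 0.0456) were called lower with palatinose, where 1.35% of all genes were called lower and 1.75% higher. *ATG41* in wild-type stood at 19.2, 15.6 and 10.5 CPM at mid-log, 47.5, 26.3 and 28.5 CPM at +10h and 28, 24.4 and 27.9 CPM at +16h in fructose-palatinose, and at 13.5, 12 and 13.1, 115, 66.6 and 70.2 and 27.8, 34.2 and 36.2 CPM in fructose. The media overlapped at mid-log and +16h and were apart at +10h. Without the A or the B libraries, or fitted on only these groups, 0 members were called, and without the C libraries or with no filter on low counts 1. In *gal80Δ* edgeR and DESeq2 called no member in this test, and none had an unadjusted p under 0.05 (0.0183% of all genes called lower, 0 higher). For the second step edgeR and DESeq2 called none in either strain (0.931% of all genes higher and 0.475% lower in wild-type, 0 in *gal80Δ*), with 2 members at an unadjusted p under 0.05 in wild-type and none in *gal80Δ*.

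**Figure D4:**
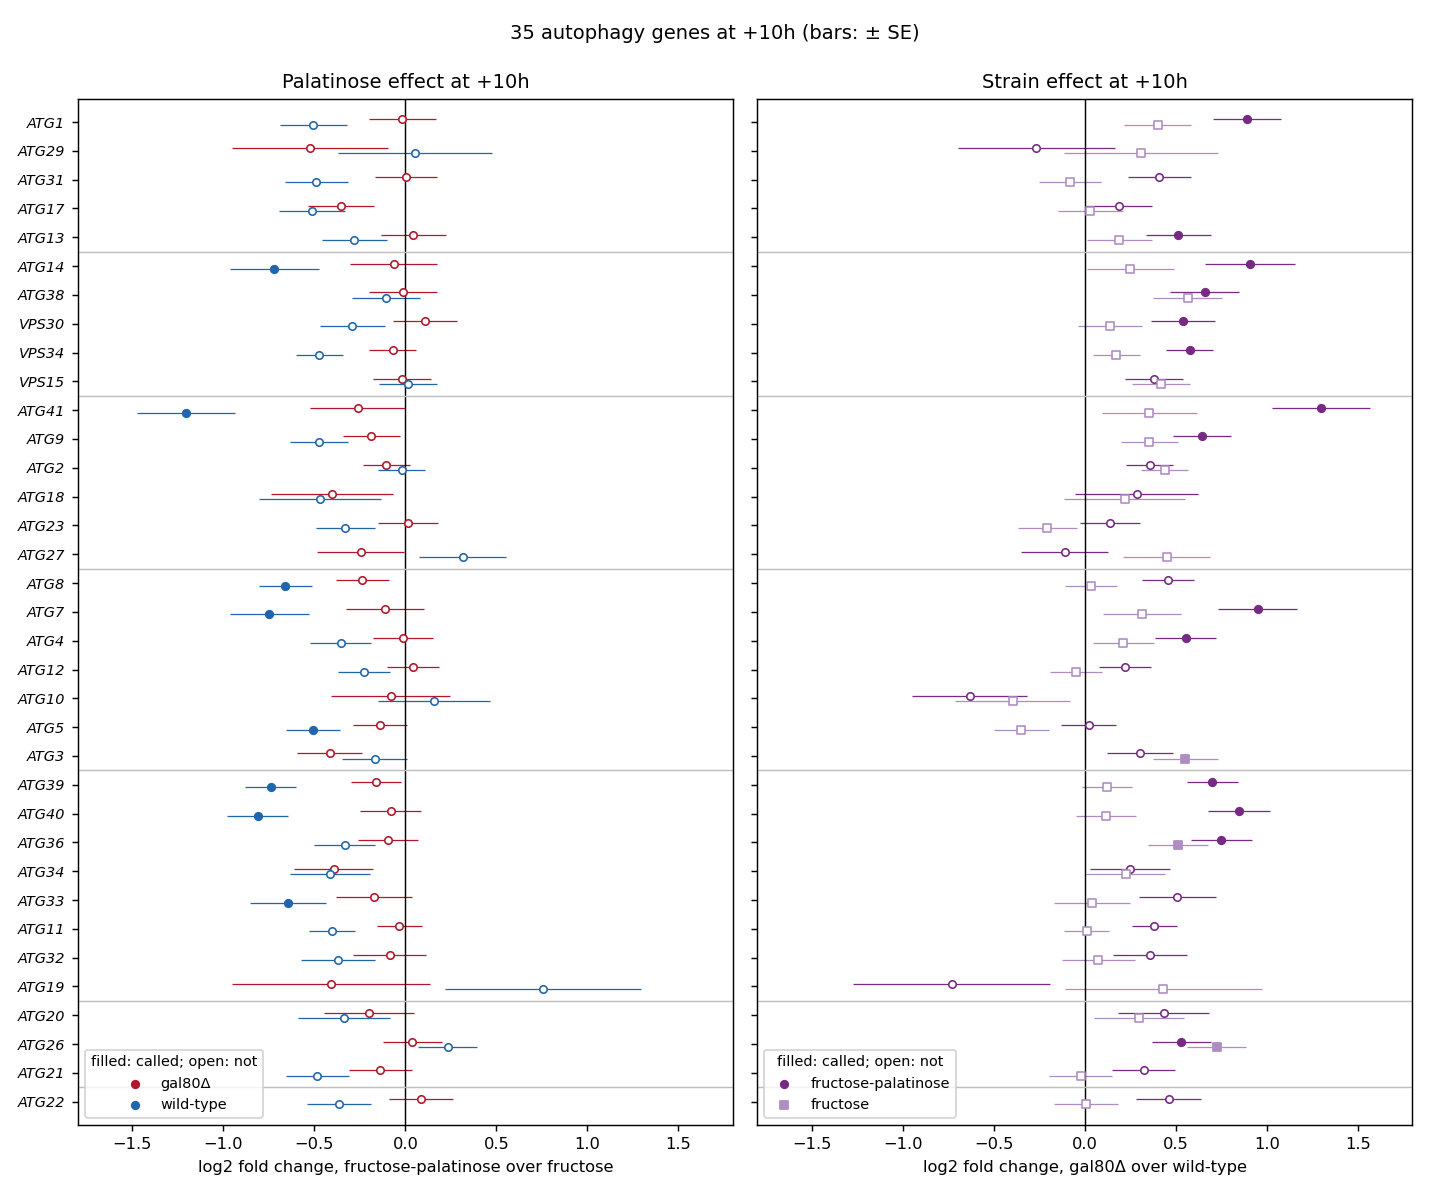
Log2 fold changes at +10h (horizontal axes, bars ± SE) of 35 members, *ATG15* left out for its low counts; the left panel gives fructose-palatinose over fructose in *gal80Δ* and wild-type, the right panel *gal80Δ* over wild-type in fructose-palatinose and fructose, and filled points were called. In the left panel 8 wild-type points are filled, all below 0, and no *gal80Δ* point is; the right panel has 14 filled points in fructose-palatinose and 3 in fructose.

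Between strains, members that were called stood higher in *gal80Δ*, with 1 exception. At mid-log 6 of 36 members were called higher in *gal80Δ* in fructose-palatinose (3.96% of all genes) and 6 in fructose (3.83%), with 1 called lower in fructose-palatinose (4.03%) and none in fructose (3.32%). At +10h 14 were called higher in fructose-palatinose (6.72%) and 3 in fructose (3.43%), and at +16h 9 in fructose-palatinose (5.58%) and none in fructose (2.1%), with none called lower at either time (7.54%, 4.07%, 7.26% and 3.87% of all genes). In fructose at +16h 5 members had an unadjusted p under 0.05 and DESeq2 called 1. Scaling by library size alone moved the median of all genes in fructose-palatinose to 0.14 at +10h and +16h, where 19 and 12 members and 10.6% and 9.14% of all genes were then higher and 5.04% and 4.45% of all genes lower. At mid-log it gave 5.55% higher and 1.95% lower in fructose-palatinose and 4.22% and 1.92% in fructose, and at +16h in fructose 2.37% and 2.23%. The median member differed in fructose-palatinose by 0.20 (mid-log), 0.45 (+10h) and 0.39 (+16h), and in fructose by 0.28, 0.20 and 0.11. The fructose-palatinose comparisons use the same wild-type libraries as the palatinose comparisons above, so neither is independent of the other.

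At mid-log *ATG1*, *ATG8* and *ATG9* were called higher in *gal80Δ* in both media. *ATG1* stood at 27.6, 21.3 and 19.8 CPM in *gal80Δ*, against 8.70, 13.7 and 14.7 CPM in wild-type, in fructose-palatinose (0.80, SE 0.21, adjusted p = 0.0113), and at 25.4, 23.2 and 19.7 against 12.1, 11.9 and 12.3 CPM in fructose (0.87, SE 0.21, adjusted p = 0.0085). *ATG8* stood at 68.5, 58.5 and 58.1 CPM in *gal80Δ*, against 27.6, 35.7 and 46.3 CPM in wild-type, in fructose-palatinose (0.68, SE 0.15, adjusted p = 0.00355), and at 87.3, 66.9 and 41.6 against 34.1, 37.7 and 38.8 CPM in fructose (0.76, SE 0.15, adjusted p = 0.00146). In both media the strains did not overlap for either gene. *ATG9* differed by 0.59 and 0.56. *ATG20* was called in fructose-palatinose, at 12.1, 10.8 and 11.9 CPM in *gal80Δ* and 3.73, 6.40 and 4.27 CPM in wild-type (1.18, SE 0.29, adjusted p = 0.00821). *ATG2* and *VPS15* were called there too, at 0.63 and 0.53, and *ATG23* was the one lower, at -0.59, while *ATG36*, *ATG38* and *ATG39* were called in fructose, at 0.58, 0.61 and 0.71. *ATG23* was not called lower without the A, the B or the C libraries, with library size alone or fitted on only the groups compared. Harvest densities at mid-log were 0.29 in *gal80Δ* and 0.28 in wild-type in fructose-palatinose, and 0.297 and 0.307 in fructose.

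Most strain calls after mid-log were in fructose-palatinose. Called higher in *gal80Δ* at both +10h and +16h in that medium were 7 members: *ATG1*, *ATG4*, *ATG7*, *ATG9*, *ATG14*, *ATG39* and *ATG40*. *ATG14* stood at 22.4, 26.4 and 20.7 CPM in *gal80Δ* and 8.67, 11.2 and 13.9 CPM in wild-type at +10h (0.91, SE 0.25, adjusted p = 0.00946), and at 16.9, 24.4 and 13 and 10.5, 8.39 and 8.46 CPM at +16h (0.88, SE 0.25, adjusted p = 0.0148). *ATG7* stood at 63.4, 74.2 and 42.9 CPM in *gal80Δ* and 27.5, 28.2 and 30.1 CPM in wild-type at +10h (0.95, SE 0.22, adjusted p = 0.00246). The strains did not overlap for either gene at these times. *ATG41* had the largest called difference, at 97.7, 101 and 71.8 CPM in *gal80Δ* and 47.5, 26.3 and 28.5 CPM in wild-type at +10h (1.30, SE 0.27, adjusted p = 0.000981). *ATG39* was called by 0.70 at +10h and 0.91 at +16h, *ATG40* by 0.85 and 0.53, *ATG1* by 0.89 and 0.58, *ATG9* by 0.64 and 0.63 and *ATG4* by 0.55 and 0.64. Of the PI3-kinase group *VPS34*, *VPS30* and *ATG38* were called at +10h, at 0.58, 0.54 and 0.66; *VPS34* stood at 65.2, 59.4 and 53.5 CPM in *gal80Δ* and 42.1, 37.9 and 29.8 CPM in wild-type, with no overlap. *ATG13*, *ATG26* and *ATG36* completed the 14 at +10h, and *ATG8* (0.58) and *ATG17* (0.52) the 9 at +16h.

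In fructose fewer members were called after mid-log, though no member's difference between the media passed the edgeR test above. *ATG8* stood at 359, 448 and 375 CPM in *gal80Δ* and 438, 397 and 355 CPM in wild-type at +10h, and at 362, 279.5 and 318 and 346, 359.8 and 313 CPM at +16h, overlapping at both times. *ATG26*, *ATG3* and *ATG36* were called at +10h, at 0.72, 0.55 and 0.51. The strain counts moved with the libraries used, as did those over all genes. In fructose-palatinose without the A, B and C libraries 8, 3 and 10 members were called at +10h, where 7.92%, 4.4% and 10.7% of all genes were called in either direction, against 14.3% with all libraries. At +16h they were 5, 2 and 6 (7.35%, 5.6% and 8.96%, against 12.8%) and at mid-log 2, 1 and 5 (3.54%, 1.97% and 6.26%, against 7.99%). In fructose they were 0, 0 and 5 at mid-log (2.96%, 1.02% and 5.49%, against 7.15%) and 1, 0 and 2 at +10h (5.11%, 1.75% and 4.49%, against 7.5%). The members' medians without the B libraries stayed at 0.28 (mid-log), 0.39 (+10h) and 0.33 (+16h) for fructose-palatinose. For fructose they were 0.26, 0.11 and 0.0048 at these times, against 0.28, 0.20 and 0.11 with all libraries.

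Genes of the same pathway under other names were described from 3 lists, of which 12 further trafficking and autophagy factors, 12 vacuolar hydrolases and Cvt cargoes and 25 regulators were not members. At +10h against mid-log, where 27.4%, 28.9%, 24.5% and 29.1% of all genes were called higher and 23.2%, 23.7%, 21.2% and 26% lower, 1, 4, 4 and 2 of the 12 trafficking factors were called higher and none lower in *gal80Δ* in fructose-palatinose and fructose and in wild-type in fructose-palatinose and fructose. The counts called higher lay near or below those shares, and the median trafficking factor changed by 0.33, 0.40, 0.20 and 0.17 in that order. *SNX4*, the sorting nexin partner of Atg20, was called in *gal80Δ* in fructose (0.76) and wild-type in fructose-palatinose (0.91). Of the 12 hydrolases and cargoes 2, 2, 4 and 2 were called higher and 2, 1, 3 and 2 lower in the same order, near the shares of all genes in several cultures. *AMS1*, the Cvt cargo mannosidase, rose by 2.96, 2.83, 3.39 and 3.63, and *PRB1*, vacuolar protease B, by 1.39, 1.35, 1.79 and 1.61, while *CPS1*, a vacuolar carboxypeptidase, fell by 1.42, 1.71, 1.17 and 1.68. Between strains *LAP3*, a cysteine aminopeptidase also known as Gal6, was called higher in *gal80Δ* in all 6 comparisons, by 0.97 to 2.08. Of the 25 regulators 11, 8, 10 and 10 were called higher and 1 lower in each culture, against those same shares. *MSN4*, a stress-response activator, rose by 1.15, 1.05, 1.72 and 1.45, and *RIM15*, a kinase of stationary phase entry, by 0.75, 0.58, 0.92 and 0.82. *SNF4*, the activating subunit of the Snf1 kinase, was the one that fell, by 0.53, 0.62, 0.64 and 0.78. *UME6*, whose product binds URS1, was not called in the first step in any culture.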

How the data were processed

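RNA of 36 yeast samples was sequenced from transcript 3′ ends (QuantSeq REV). The authors deposited raw read counts per gene, made with cutadapt 1.18, HISAT2 2.1.0 and featureCounts (Subread 2.0.0) on the R64 genome with intervals built from the longest known transcripts and a default 3′ end where none was known. Among the members 5 had the default end: *ATG2*, *ATG9*, *ATG15*, *ATG16* and *VPS15*. Whether it altered their counts was not tested. The harvest optical densities are used as deposited. Of the per-sample columns 1 other, of CPM, was not used. Libraries totalled 6020770 to 11785148 counts, so genes of few reads are measured least precisely.

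Counts were tested in edgeR 4.0.16 (R 4.3.3) by the quasi-likelihood test with TMM scaling, filterByExpr over the 12 groups and 1 fit of all 36 libraries, with p-values adjusted by Benjamini-Hochberg over 5479 genes. Calls needed a log2 fold change beyond 0.5 and an adjusted p under 0.05. The method was tested on simulated counts in which 200 genes changed in 1 group. It recovered 87.9% of the log2 changes of 1 and 100% of those of 2, with 7 false calls. Far fewer genes changed there than were called from mid-log to +10h, so the scaling was not tested for such a step. The alternatives were DESeq2 1.42.0, library size alone, no filter, 10 counts in every library, only the groups compared, the replicate letter as a block, and each letter left out. The labels do not say whether same-lettered cultures are 1 flask, so the main fit did not pair letters, and a pairing stays possible. Same-letter deviations correlated at a median r of -0.00288 over 60 pairs, with a range of -0.591 to 0.656. In 3 of 20 comparisons every pair exceeded 0.1. Windows of 300 bases were read from the RefSeq genome by the deposited intervals, where a promoter table had been planned.

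Given library by library were *ATG1*, *ATG7*, *ATG8*, *ATG9*, *ATG14*, *VPS15*, *VPS30* and *VPS34*, and up to 5 called members of largest change in each of the 5 families of comparisons (1 family had none, another 2); other members are named where they were called or their role group is described. The members and lists were chosen with earlier results of these data known.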

Additional observations from a re-analysis of the deposited data

Results flagged for a closer look

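An interaction test in edgeR, of the +10h over mid-log change between the wild-type media, called 2 members. For *ATG41* the difference, fructose-palatinose minus fructose, was -1.48 on the log2 scale (SE 0.40, adjusted p = 0.0352), and for *ATG40* it was -0.92 (SE 0.26, adjusted p = 0.0456). Neither was called without the A or the B libraries or in a fit of only these groups.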

How the results depend on the processing

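With the letters A, B and C as a replicate block, 1 member was called from +10h to +16h in wild-type in fructose-palatinose, against 0 without the block, and no other count moved by over 1.5 times. Pairing by letter is not given by the labels. Of 183 calls of a member in a comparison, 111 were kept under all 9 alternatives and 0 reversed. At +10h against mid-log the counts of members called higher moved by under 1.5 times under all 9, while in wild-type in fructose 1 member was called lower by DESeq2 and 1 without the C libraries, against 0. *ATG23* in wild-type in fructose-palatinose was not called lower with library size alone.

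Leaving out 1 letter at a time gave, from +10h to +16h, 1 to 3 members in *gal80Δ* in fructose-palatinose, 0 to 2 in *gal80Δ* in fructose and 2 to 4 in wild-type in fructose. It gave 0 to 8 for palatinose in wild-type at +10h and 0 to 2 at +16h. Between strains it gave 0 to 5 in fructose at mid-log, 0 to 2 in fructose at +10h, and in fructose-palatinose 1 to 5 at mid-log, 3 to 10 at +10h and 2 to 6 at +16h. For the time by palatinose test in wild-type at +10h it gave 0 to 1.

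Fitted on only the groups compared, the counts were 1 in *gal80Δ* in fructose and 1 in wild-type in fructose-palatinose from +10h to +16h, 1 for palatinose in wild-type at +10h, 1 (mid-log), 0 (+10h) and 1 (+16h) between strains in fructose, 3 between strains in fructose-palatinose at mid-log, and 0 for time by palatinose in wild-type. With library size alone they were 2 in *gal80Δ* and 5 in wild-type in fructose from +10h to +16h, 16 for palatinose in wild-type at +10h, and 1 between strains in fructose at +10h and at +16h. DESeq2 called 2 from +10h to +16h in wild-type in fructose-palatinose, 1 between strains in fructose at +16h and 1 for strain by palatinose at +16h. With no filter 1 member was called between strains in fructose at +10h and 1 for time by palatinose, and with 10 counts in every library 1 between strains in fructose at +10h and 1 from +10h to +16h in wild-type in fructose-palatinose. Low counts limit *ATG15*, *ATG16* and *ATG29*, and the 3′ ends of *ATG15* and *ATG16* lie in a neighbour's interval on the same strand. Whether depth or this overlap lowers those counts was not tested. The cause of these shifts was not tested.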
